A study of Mus musculus with 6 samples.

Results

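The comparison described here sets frontal cortex that lacks the adaptor Dab1 against frontal cortex that lacks both of the receptors to which Dab1 binds. It rests on 2 of the 6 arrays of the study, chosen by their genotype labels: the DAB1 KO array and the APOER2-VLDLR KO array. Each of the 6 arrays (REELIN KO, APOER2 KO, VLDLR KO and Wild type are the others) holds RNA from 1 frontal cortical lobe of 1 mouse aged 21 days, on a mixed C57BL/6 and 129 background and labelled male. The wild-type and receptor mutants came from a cross of mice heterozygous for both Vldlr and apoER2, whereas the Dab1 and Reln mutants came from matings of their own heterozygotes, and no littermate control of either was analysed here. The labels state that the reeler phenotype was used to pick mice, and they do not say which exons each allele lacks. With 1 array a side, no difference has a replicate check, no p-value was computed, and animal, cross and genotype cannot be told apart. In what follows the arrays are called the Dab1, double-receptor, Reln, Apoer2, Vldlr and wild-type arrays.

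Reelin is a large secreted glycoprotein that binds the lipoprotein receptors Vldlr and Apoer2, the product of the Lrp8 gene. Both receptors carry a cytoplasmic motif bound by Dab1, which Src family kinases phosphorylate when reelin clusters the receptors, and phosphorylated Dab1 recruits Crk adaptors, phosphoinositide 3-kinase and Nck. In mice, loss of reelin, of Dab1 or of both receptors gives the reeler phenotype, with a disordered cortex and a small, poorly foliated cerebellum, while loss of a single receptor gives a milder one. The question was therefore whether cortex without the adaptor and cortex without both receptors differ in their RNA, and on which array any such gene stood away from mice that keep at least 1 receptor and the adaptor.

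The values are MAS5 signals, an array intensity on a linear scale. Differences are given as log2(signal + 28) on the Dab1 array minus the same on the double-receptor array, so that a positive value is higher on the Dab1 array, and 2-fold means a difference of at least 1 on that scale. Adding 28 understates the fold of dim probe sets, and a reading at background gives a difference that depends on it. The median signal over all probe sets was between 86.5 and 92.3 on the 6 arrays, and the brightest of 27 probe sets for bacterial genes, a gauge of background, read between 28.4 and 39.6. Of 45037 probe sets, 510 (1.13%) were higher by 2-fold or more on the Dab1 array and 524 (1.16%) were lower by as much. Of these 1034 probe sets, 797 (77.1%) had a mean signal below the median of all probe sets, where background weighs most. The description by gene used the brightest probe set of each gene and kept the 11497 genes whose mean signal was at least 89.0, that median. In bulk tissue, fewer cells of a type and less RNA per cell cannot be told apart.

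The targeted genes were read first. At its 2 brightest probe sets Lrp8 was near background on the double-receptor and Apoer2 arrays and nowhere else. The brightest read 370.1 on the Dab1 array and 13.7 on the double-receptor array, against 342.4 on the Reln array, 4.2 on the Apoer2 array, 379.8 on the Vldlr array and 357.8 on the wild-type array. The third probe set of Lrp8 was dimmer and less far apart, at 109.1 on the Dab1 array and 57.3 on the double-receptor array. Vldlr was lower on the double-receptor array at each of its 6 probe sets, by 0.60 to 2.14 on the log2 scale, and 5 of the 6 were 2-fold apart. The probe set chosen for the gene read 482.9 on the Dab1 array and 185.6 on the double-receptor array, against 357.6 on the Reln array, 491.7 on the Apoer2 array, 187.3 on the Vldlr array and 551.6 on the wild-type array. At this probe set the signal left on both arrays that carry the Vldlr mutation was well above background, whereas the dimmest probe set read 73.4 on the Dab1 array and 5.6 on the double-receptor array.

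The Dab1 gene itself separated the arrays much less. None of its 5 probe sets was 2-fold apart, with differences from -0.79 to 0.01, and the Dab1 array was the lowest of the 6 at 4 of them. The widest gap was at the dimmest probe set, with 102.1 on the Dab1 array and 196.8 on the double-receptor array, against 217.7 on the Reln array, 201.1 on the Apoer2 array, 197.7 on the Vldlr array and 187.8 on the wild-type array. At the brightest the Dab1 array read 478.5 and the double-receptor array 516.4, and the other 4 arrays read between 573.1 and 626.0. A 3' array reads RNA and not protein, and where these probe sets lie relative to the mutation is not given in the sources used here, so the Dab1 signal does not check the label of the Dab1 array. Reln, the ligand, had nearly the same signal on both arrays, 1547.0 on the Dab1 array and 1498.3 on the double-receptor array, against 79.9 on the Reln array, 1819.7 on the Apoer2 array, 1880.0 on the Vldlr array and 1669.0 on the wild-type array.

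**Figure D1:**
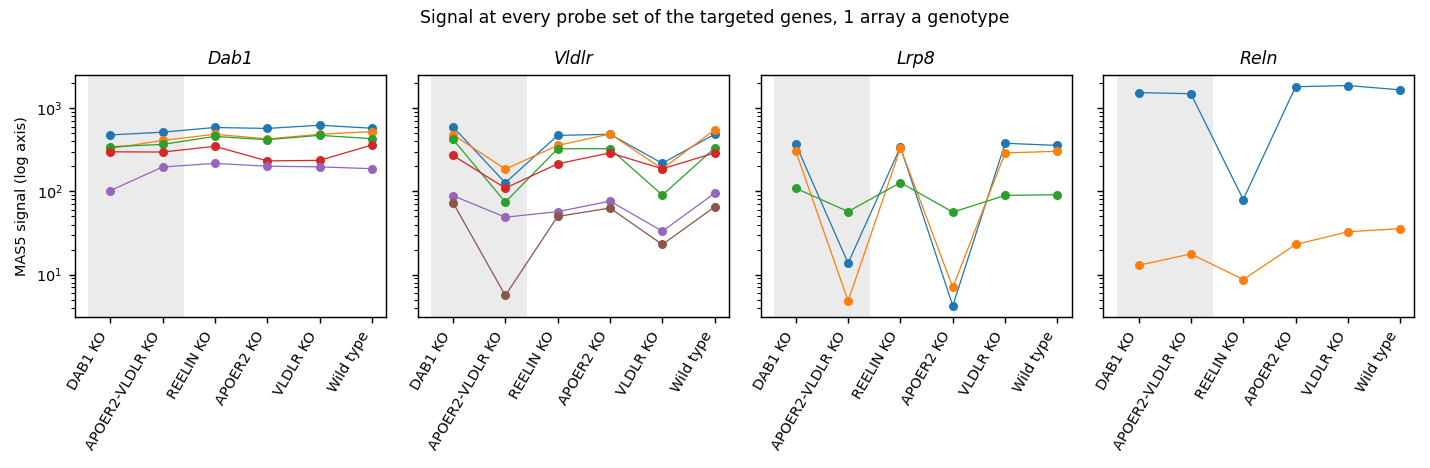
MAS5 signal (log axis) at every probe set of the 4 targeted genes on the 6 arrays, with the 2 arrays compared shaded; each line is 1 probe set. Lrp8 drops on the double-receptor and Apoer2 arrays and Vldlr on the double-receptor and Vldlr arrays, while none of the 5 Dab1 probe sets is 2-fold lower on the Dab1 array than on the double-receptor array.

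On the Dab1 array 36 genes (0.313%) were higher by 2-fold or more and 47 (0.409%) were lower by as much, 83 in all. At 16 of the 83 a reading was at or below the brightest bacterial control of its array, 8 on the Dab1 array and 8 on the double-receptor array. The median difference over the 11497 genes was -0.01, the median size of the difference was 0.14, and 687 genes (5.98%) were at least 0.5 apart. By this count 2 of the 15 pairs of arrays were closer: 44 genes were 2-fold apart between the Apoer2 and wild-type arrays, and 79 between the Apoer2 and Vldlr arrays. The Vldlr and wild-type arrays, also at 83, equalled the pair compared. Against the wild-type array the count was 119 for the Dab1 array and 107 for the double-receptor array, and against the Reln array it was 194 for the Dab1 array and 132 for the double-receptor array. Over all probe sets, dim ones included, 6 pairs were closer than the 1034 of the Dab1 and double-receptor arrays, with 788 to 1015, among them the Dab1 and Vldlr arrays (1015) and the double-receptor and Vldlr arrays (901). These counts share arrays, so they describe distances among 6 mice and are not independent of one another.

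**Figure D2:**
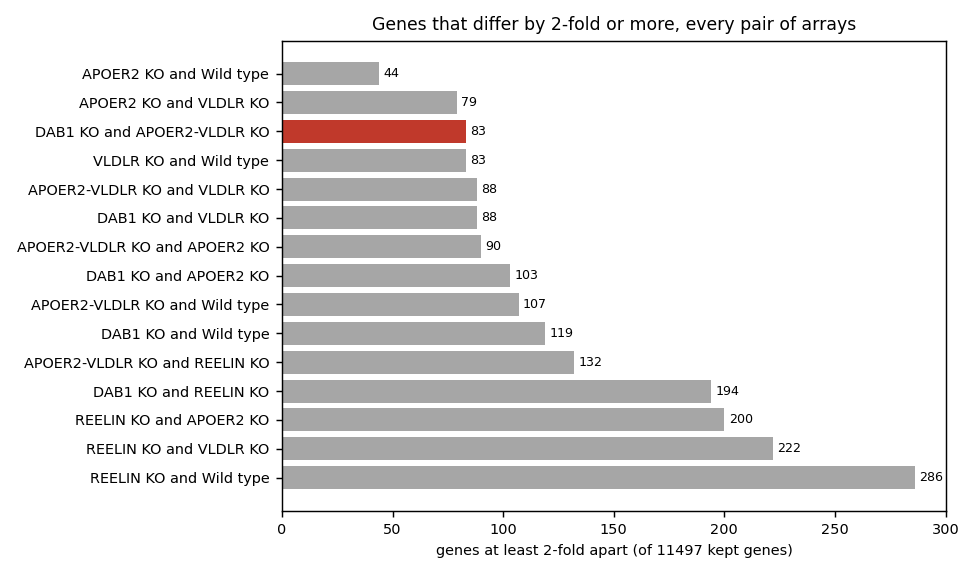
Number of kept genes at least 2-fold apart for each of the 15 pairs of arrays, sorted, with 1 array a genotype and no error bar. The Dab1 and double-receptor arrays (red) differ at 83 genes, between the lowest count of 44 and the highest of 286, which is for the Reln and wild-type arrays.

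To see which of the 2 arrays lay away from the rest, each was set against the Apoer2, Vldlr and wild-type arrays, called the comparison arrays. An array was said to depart where it lay outside the range of those 3 and at least 1 (log2) from their median. Of the 83 genes, the Dab1 array alone departed at 27, 6 of them higher and 21 lower, and the double-receptor array alone departed at 20, 6 of them higher and 14 lower. Both departed at 1 gene, to the same side, and at none to opposite sides. Neither departed at the remaining 35. At some the comparison arrays were themselves spread widely, as at Lrp8, where the Apoer2 array is as low as the double-receptor array. At others each array lay part of the way to its side, or 1 array fell just short of the distance of 1. Sdc4 is of the last kind, at -0.96 on the Dab1 array and 0.16 on the double-receptor array. With a distance of 0.5, neither departed at 10 genes. The Reln array was not used for this sorting. It departed the same way at 4 of the 27 genes of the Dab1 array and at 6 of the 20 genes of the double-receptor array, and the opposite way at 1 gene of each group; its departures are measured from the same comparison arrays.

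**Figure D3:**
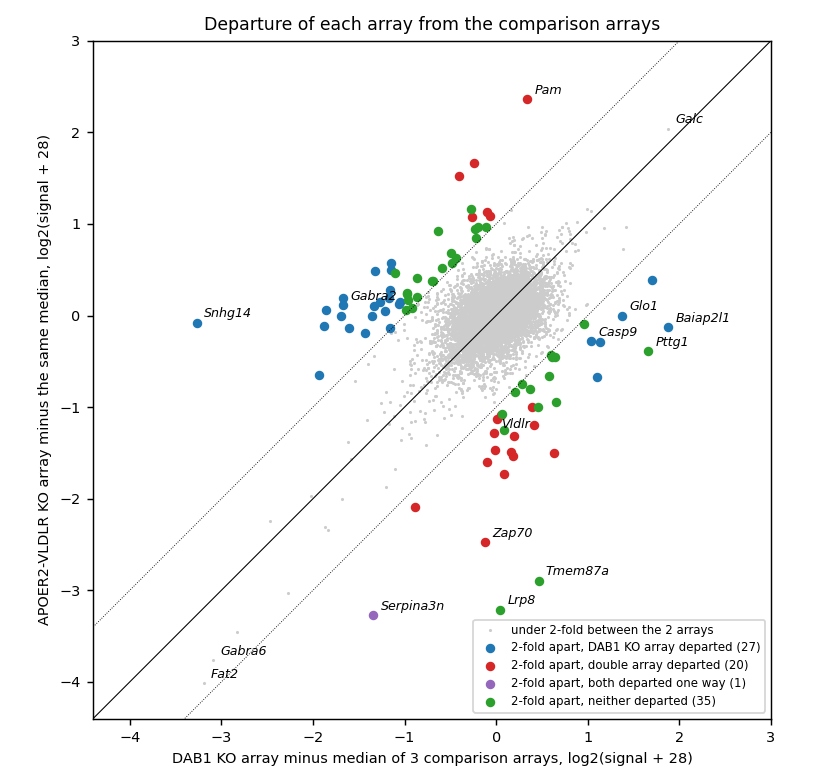
Each point is 1 of 11497 kept genes, placed by the log2(signal + 28) of the Dab1 array (horizontal) and of the double-receptor array (vertical) minus the median of the Apoer2, Vldlr and wild-type arrays. The solid line marks equal departure and the dotted lines a 2-fold gap; coloured points are the 83 genes beyond them, and the genes farthest along the diagonal, such as Fat2 and Gabra6, lie between the dotted lines.

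The genes at which the Dab1 array alone was lower include a receptor subunit and part of the antigen-presentation machinery. Gabra2, the α2 subunit of the GABA-A receptor, read 144.3 on the Dab1 array and 562.3 on the double-receptor array, against 555.4 on the Reln array, 519.1 on the Apoer2 array, 684.5 on the Vldlr array and 366.0 on the wild-type array. The Dab1 array was the lowest of the 6 by a wide margin, and the difference of -1.78 was matched by -1.79 and -1.07 at the other 2 probe sets of the gene that passed the filter. B2m, the light chain of MHC class I, read 791.8 on the Dab1 array and 2157.6 on the double-receptor array, against 1540.7 on the Reln array, 2138.7 on the Apoer2 array, 1778.6 on the Vldlr array and 1938.9 on the wild-type array. Its difference was -1.41 there and -0.46 at its other probe set, so the direction was the same and the 2-fold size was not. H2-Bl, a class I gene named after its value was seen, differed by -1.44, while H2-K1, a classical class I heavy chain, differed by -0.18.

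Another of the lower genes was Snhg14, a long non-coding host transcript of small nucleolar RNAs that runs antisense to Ube3a. It read 27.6 on the Dab1 array and 479.9 on the double-receptor array, and between 438.0 and 575.5 on the other 4 arrays. The Dab1 reading is below the brightest bacterial control, so the difference of -3.19 is set in part by the added 28, and it was -0.24 at the other one that passed the filter. Otud3, a deubiquitinase, read 63.1 on the Dab1 array and 318.0 on the double-receptor array, with the other 4 arrays between 293.0 and 353.8, a difference of -1.93. At its other probe set past the filter the difference was -0.84. Smim10l1 differed by -1.77 at its brightest probe set and by 0.09 and 1.01 at its other 2, so its direction rests on the probe set chosen.

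Further genes on which the Dab1 array alone was lower were Adat2, a subunit of a tRNA adenosine deaminase (-1.86), Shld2, a subunit of the shieldin complex of DNA repair (-1.81), Carns1, carnosine synthase (-1.72), Tmem40 (-1.69) and Pax5, a transcription factor of the midbrain-hindbrain boundary and of B cells (-1.43). At Adat2 the Reln array departed lower too, at 96.8 beside 59.3 on the Dab1 array. Tmem40 differed by -0.72 at its other probe set past the filter. Lepr, the leptin receptor, read 32.9 on the Dab1 array and 110.8 on the double-receptor array, with the other 4 arrays between 90.3 and 110.7. Most of these were dim on the Dab1 array: Carns1 read 47.8, Tmem40 29.0, Pax5 41.4 and Shld2 32.9 there, close to the highest bacterial control of 39.6 on that array. Wdfy1, an endosomal lipid-binding protein named after its value was seen, differed by -1.47, and each of its other 2 probe sets past the filter ran the same way and was 2-fold apart.

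The 6 genes at which the Dab1 array alone was higher were fewer, and 2 of them were bright. Glo1, glyoxalase 1, which clears methylglyoxal, read 2883.5 on the Dab1 array and 1095.6 on the double-receptor array, against 1921.3 on the Reln array, 1097.6 on the Apoer2 array, 1073.5 on the Vldlr array and 1559.0 on the wild-type array. The Dab1 array was the highest of the 6, and all 4 probe sets of the gene past the filter were 2-fold apart the same way. Gng4, a G protein γ subunit, read 1354.0 on the Dab1 array and 489.5 on the double-receptor array, with 1129.8 on the Reln array and between 513.3 and 850.7 on the comparison arrays. The difference of 1.42 at this probe set was 1.06 and 0.13 at the other 2 past the filter. Baiap2l1, an actin-binding protein with an inverse BAR domain, read 200.7 on the Dab1 array and 28.9 on the double-receptor array, with 376.4 on the Reln array and between 30.5 and 68.9 on the comparison arrays. Thus the Reln array was also high at Baiap2l1. Casp9, the initiator caspase of the mitochondrial pathway, was named after its value was seen and differed by 1.31, with the other 2 of its probe sets past the filter 2-fold apart the same way. The others were Zfp991 (1.78) and G530011O06Rik (1.32).

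At 14 genes the double-receptor array alone was lower. Zap70, a kinase of T-cell receptor signalling, read 421.0 on the Dab1 array and 59.9 on the double-receptor array, against 136.1 on the Reln array, 472.2 on the Apoer2 array, 460.1 on the Vldlr array and 179.4 on the wild-type array. Here the wild-type array was itself well below both single-receptor arrays. Plcd4, a phospholipase C, read 230.0 on the Dab1 array and 50.7 on the double-receptor array, with the other 4 arrays between 177.5 and 259.3. Zfp1, a zinc-finger protein, read 156.1 on the Dab1 array and 24.2 on the double-receptor array, and 52.9 on the wild-type array.

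Among the brighter of these, Rgs5, a GTPase-activating regulator that marks pericytes, read 1585.9 on the Dab1 array and 704.7 on the double-receptor array, against 886.2 on the Reln array, 1579.4 on the Apoer2 array, 1536.9 on the Vldlr array and 2019.2 on the wild-type array. All 3 of its other probe sets past the filter ran the same way, 1 of them by 2-fold. The other 11 kept genes of the endothelium and pericyte list did not pass 2-fold and the list's median was -0.01. Cthrc1, a secreted protein with a collagen repeat, differed by 2.13, with 337.2 on the Dab1 array and 55.2 on the double-receptor array, and the other 4 arrays lay between 175.4 and 265.5. Abcd2, a peroxisomal transporter of very long-chain fatty acids named after its value was seen, differed by 1.65 at its brightest probe set, 0.21 at the next and 1.02 at the third. It was also low on the Reln array, which read 86.0 where the Dab1 array read 302.3 and the double-receptor array 77.2.

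The 6 genes at which the double-receptor array alone was higher include an enzyme of red blood cells and 2 immediate early genes. Alas2, the erythroid enzyme that begins haem synthesis, read 205.9 on the Dab1 array and 848.1 on the double-receptor array, against 125.3 on the Reln array, 247.9 on the Apoer2 array, 406.1 on the Vldlr array and 157.3 on the wild-type array. Of the 10 genes of the blood list, 4 had a probe set naming them alone, and only Alas2 and Fech passed the filter. Fech, which completes haem synthesis, differed by 0.20 and read between 944.8 and 1100.8 on the 6 arrays. The part that blood left in the tissue has in the Alas2 value was not tested. Npas4, an activity-induced transcription factor, read 73.2 on the Dab1 array and 227.3 on the double-receptor array, against 330.2 on the Reln array, 156.2 on the Apoer2 array, 40.3 on the Vldlr array and 93.5 on the wild-type array. Ccn1, a matricellular protein of the immediate early response, differed by -1.15, and Mrpl41, a mitochondrial ribosomal protein, by -1.22. At their other probe set past the filter the differences were -0.81 and -0.19. The Reln array also departed higher at both. Ccn1 read 240.6 on the Reln array and 160.5 on the double-receptor array, and Mrpl41 read 1988.3 and 2169.2. Tent5c, a poly(A) polymerase, differed by -1.93, with 77.8 on the Dab1 array and 376.4 on the double-receptor array.

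**Figure D4:**
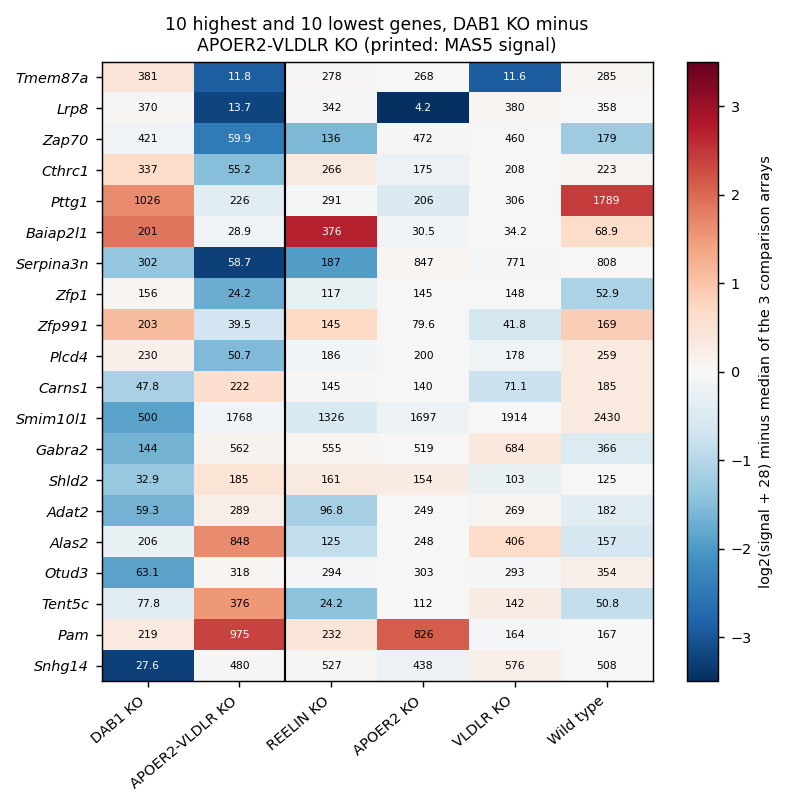
The 10 genes highest and the 10 lowest on the Dab1 array relative to the double-receptor array, each with its MAS5 signal printed on all 6 arrays; colour gives log2(signal + 28) minus the median of the Apoer2, Vldlr and wild-type arrays. Snhg14, Otud3, Gabra2 and Smim10l1 are low on the Dab1 array alone, Plcd4 and Cthrc1 are low on the double-receptor array alone, and Tmem87a and Pam share their level with 1 single-receptor array.

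Some wide gaps were crossed by the comparison arrays themselves. Pttg1, the securin that guards chromosome separation, read 1026.1 on the Dab1 array and 226.4 on the double-receptor array, against 291.2 on the Reln array, 206.3 on the Apoer2 array, 305.6 on the Vldlr array and 1788.9 on the wild-type array. The wild-type array was the highest of the 6, so neither array departed. A second probe set of a gene gave a check within the same RNA for 28 of the 83 genes. For 11 of them, the receptor genes Vldlr and Lrp8 included, another probe set past the filter was 2-fold apart the same way. For 15 at least 1 other ran the same way but under 2-fold, and among these Eif4ebp2, Sorl1 and Sc5d also had another that ran the opposite way. For 2 (Smim10l1 and Ace, which encodes angiotensin-converting enzyme) each other probe set ran the opposite way. The remaining 55 genes had no other probe set past the filter. Dimmer probe sets of these genes were not counted, and they ran either way. Dcp1b differed by 1.45 at the chosen probe set and by -1.26 at a dimmer one. Baiap2l1 differed by 2.01 and by 0.99.

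Several of the widest gaps between the Dab1 and double-receptor arrays were shared by the double-receptor array and 1 single-receptor array. This pattern was noticed in the values and then counted, so it is a description: the double-receptor array and 1 single-receptor array both lay at least 1 (log2) to one side of the Dab1 array, the wild-type array and the other single-receptor array. Leaving out the 2 receptor genes, 5 genes did so with the Vldlr array and 1 with the Apoer2 array. Tmem87a, a membrane protein of the Golgi, read 381.2 on the Dab1 array and 11.8 on the double-receptor array, against 278.0 on the Reln array, 268.5 on the Apoer2 array, 11.6 on the Vldlr array and 284.7 on the wild-type array. Signal was thus at background on both arrays that carry the Vldlr mutation and on no other, and its difference of 3.36 is set in part by the added 28. Sc5d, the sterol C5-desaturase of cholesterol synthesis, read 640.6 on the Dab1 array and 209.3 on the double-receptor array, against 235.9 on the Reln array, 689.1 on the Apoer2 array, 230.4 on the Vldlr array and 781.5 on the wild-type array. Its other 2 probe sets past the filter differed by -0.40 and 0.04, and none of the other 13 kept genes of cholesterol synthesis was 2-fold apart.

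Mid1, a ubiquitin ligase of microtubules (1.33), and Rbm45, an RNA-binding protein (1.14), were low with the Vldlr array in the same way, and 2900052N01Rik (-1.44) was high with it. With the Apoer2 array, Pam, the enzyme that amidates neuropeptides, was high: it read 219.4 on the Dab1 array and 975.2 on the double-receptor array, against 232.3 on the Reln array, 826.3 on the Apoer2 array, 163.7 on the Vldlr array and 167.4 on the wild-type array. The strains are mixed, so alleles that travel with each mutation and the mutation itself cannot be told apart here. The genes on either side of the targeted genes in RefSeq's gene order (GRCm38.p6) were read for this reason. Among 59 kept genes within 30 places of Dab1, 1 was 2-fold apart (Lepr), where 0.72% of all kept genes were. At least 0.5 apart were 4 (6.78%), beside 5.98% of all kept genes. Lrp8 lies within 30 places of Dab1, so its 59 neighbours overlap with those of Dab1, and they too held Lepr alone beyond 2-fold. Of the 60 neighbours of Vldlr, none was even 0.5 apart. This count takes only the gap between the 2 arrays. Lrp8 lies 14 places from Dab1, so by its label each of the 2 arrays carries a targeted allele in that stretch. Flanking alleles shared by both would leave no gap there. Prune2, 24 places from Vldlr and named after its value was seen, read 503.4 on the Dab1 array and 595.4 on the double-receptor array. It read 665.1 on the Reln array and 477.0 on the Vldlr array, against 1611.4 on the Apoer2 array and 1599.6 on the wild-type array. It was thus low on both arrays that carry the Vldlr mutation, and on the Dab1 and Reln arrays too.

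Apart from the gaps between them, the 2 arrays shared departures from the comparison arrays. The Dab1 array departed at 65 genes in all, 11 higher and 54 lower, and the double-receptor array at 60, 12 higher and 48 lower. Both departed together at 21 genes, 2 higher and 19 lower. Both departures are measured from the same 3 comparison arrays, so this count is no independent support for a shared effect, and the values of each array are given side by side. Between the 2 arrays, only Serpina3n of these 21 was 2-fold apart. Galc, the lysosomal galactosylceramidase, was the clearest of the higher genes, with 377.0 on the Dab1 array, 425.3 on the double-receptor array and 404.6 on the Reln array, against 62.3 to 86.0 on the comparison arrays.

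Of the 19 that were lower on both, among 11497 kept genes, 8 belong to the list of cerebellar granule cell genes, of which 17 were kept. Gabra6, a GABA-A receptor subunit of granule cells, read 185.7 on the Dab1 array and 106.6 on the double-receptor array, against 251.5 on the Reln array, 2014.9 on the Apoer2 array, 1247.6 on the Vldlr array and 1797.0 on the wild-type array. Fat2, a protocadherin of granule cells, read 36.4 on the Dab1 array and 8.4 on the double-receptor array, against 93.3 on the Reln array, 560.4 on the Apoer2 array, 549.1 on the Vldlr array and 642.5 on the wild-type array. At both genes the Dab1, double-receptor and Reln arrays were low and the 3 comparison arrays high, with no overlap. These 3 arrays all lay below the comparison arrays at 8.67% of all kept genes and at 13 of the 16 kept genes of the list other than Reln, which the list also holds and which is itself targeted. None of the 16 was 2-fold apart between the Dab1 and double-receptor arrays, but 12 were above 0 and the median was 0.33, beside -0.01 over all kept genes. Zic1 and Gabra6 differed by 0.67 each, while Grin2c, an NMDA receptor subunit, read 304.2 on the Dab1 array and 302.7 on the double-receptor array. At Fat2 both readings lie at or below the brightest bacterial control of their array, 39.6 on the Dab1 array and 31.2 on the double-receptor array, so their order is not measured. Summed over the 16 genes, the signal was 14765.5 on the Dab1 array and 14084.0 on the double-receptor array, against 15187.8 on the Reln array, 26288.8 on the Apoer2 array, 23090.2 on the Vldlr array and 26352.9 on the wild-type array. Slc17a7 and Vsnl1, which cortical neurons also express, made up 50.7% of the sum on the Dab1 array and 58.0% on the double-receptor array. Over the other 14 genes, a subset taken after the values were seen, the sum was 7278.1 on the Dab1 array and 5914.1 on the double-receptor array, against 5979.1 on the Reln array, 18212.5 on the Apoer2 array, 15110.9 on the Vldlr array and 18223.7 on the wild-type array. The tissue is labelled frontal cortex, where granule cells of the cerebellum are not found, and the part of cerebellar RNA in any other gene's value was not tested.

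Serpina3n, a secreted protease inhibitor of the acute-phase response made by reactive astrocytes, was lower on both arrays and further so without the receptors. It read 302.1 on the Dab1 array and 58.7 on the double-receptor array, against 187.1 on the Reln array, 847.3 on the Apoer2 array, 770.8 on the Vldlr array and 807.9 on the wild-type array. The Reln array lay between the other 2 mutants. The other 7 kept reactive and acute-phase genes were under 2-fold, from Cd44 (-0.35) to S1pr3 (0.23, or -0.25 with its probe sets averaged).

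Only 0.72% of all kept genes were 2-fold apart, so a short list without such a gene does not stand out. Of 30 kept kinases, adaptors and effectors of Dab1, none was 2-fold apart, the median was 0.02, and the range ran from Nck1, an SH2 adaptor (-0.30), to Rapgef1, an exchange factor for Rap GTPases (0.29). The same held for the 13 genes of the Lis1, Cdk5 and nuclear migration list (median 0.08). Within it, Dcx, the microtubule protein of migrating neurons, had the widest difference, 0.79, with 436.5 on the Dab1 array and 240.6 on the double-receptor array, and between 187.6 and 296.8 on the other 4 arrays. Of the 8 kept ligands other than reelin, none was 2-fold apart, with Lpl, lipoprotein lipase, at 0.88 and Spon1, F-spondin, at -0.34, which was 0.65 with its probe sets averaged. Of the 16 kept adaptors of the LDL receptor family, none was 2-fold apart (median -0.10).

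Among the 14 kept members of the LDL receptor family other than Vldlr and Lrp8, 1 was lower by 2-fold on the Dab1 array. That gene was Sorl1, a sorting receptor, with 991.1 on the Dab1 array and 2079.9 on the double-receptor array, against 2282.4 on the Reln array, 1226.2 on the Apoer2 array, 2211.8 on the Vldlr array and 1391.0 on the wild-type array. The values fall into a high and a low set that mix the genotypes, so neither array departed. Of its other 2 probe sets past the filter, 1 ran the same way, and neither was 2-fold apart. Lrp1, the large endocytic receptor, differed by 0.21, and Lrp2 by -0.42.

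None of the cortical layer markers was 2-fold apart, where 0.72% of all kept genes were. The 15 upper-layer genes had a median of -0.06, with Wfs1 (-0.53) and Rorb (-0.36) lowest. The 21 genes of deep layers and subplate had a median of 0.15, 17 of them above 0, with Fezf2, a factor that specifies subcerebral neurons, at 0.57 and Sox5 at -0.36. Interneuron genes had a median of 0.11 over 17 genes, none 2-fold apart, and the glutamate and GABA receptors had 1 of 21 apart, Gabra2.

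Glial lists were mixed. All 8 oligodendrocyte precursor genes were kept, none was 2-fold apart, and 7 were above 0 (median 0.27). Among them Pdgfra, the receptor that defines these cells, read 809.9 on the Dab1 array and 421.4 on the double-receptor array, with the other 4 arrays between 545.4 and 708.8, a difference of 0.90. Of the 15 myelin genes, 11 were below 0 (median -0.14), from Mal (-0.70) and Ermn (-0.62) to Ugt8a, the enzyme that makes galactosylceramide, at 0.91. Of 10 kept microglial genes, Fcrls was 2-fold higher, with 218.4 on the Dab1 array and 76.7 on the double-receptor array, while the list's median was 0.07.

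The immediate early genes leaned toward the double-receptor array. Of 22 kept, 17 were below 0, 1 (Npas4) was 2-fold lower on the Dab1 array, and the median was -0.21. Arc, a synaptic early gene, read 260.2 on the Dab1 array and 489.9 on the double-receptor array, against 1454.8 on the Reln array, 778.9 on the Apoer2 array, 64.4 on the Vldlr array and 282.4 on the wild-type array. The spread of Arc within the comparison arrays was wider than the gap between the 2 mutants. The interferon list had the lowest median of the lists with at least 4 kept genes, -0.37 over 7, which run from B2m (-1.41) to Ifitm3 (0.09); with its dim genes also counted, under no filter, the median was 0.00. Over 33 lists with at least 4 kept genes, the median lay within 0.1 of 0 in 20 and beyond 0.2 in size in 6.

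**Figure D5:**
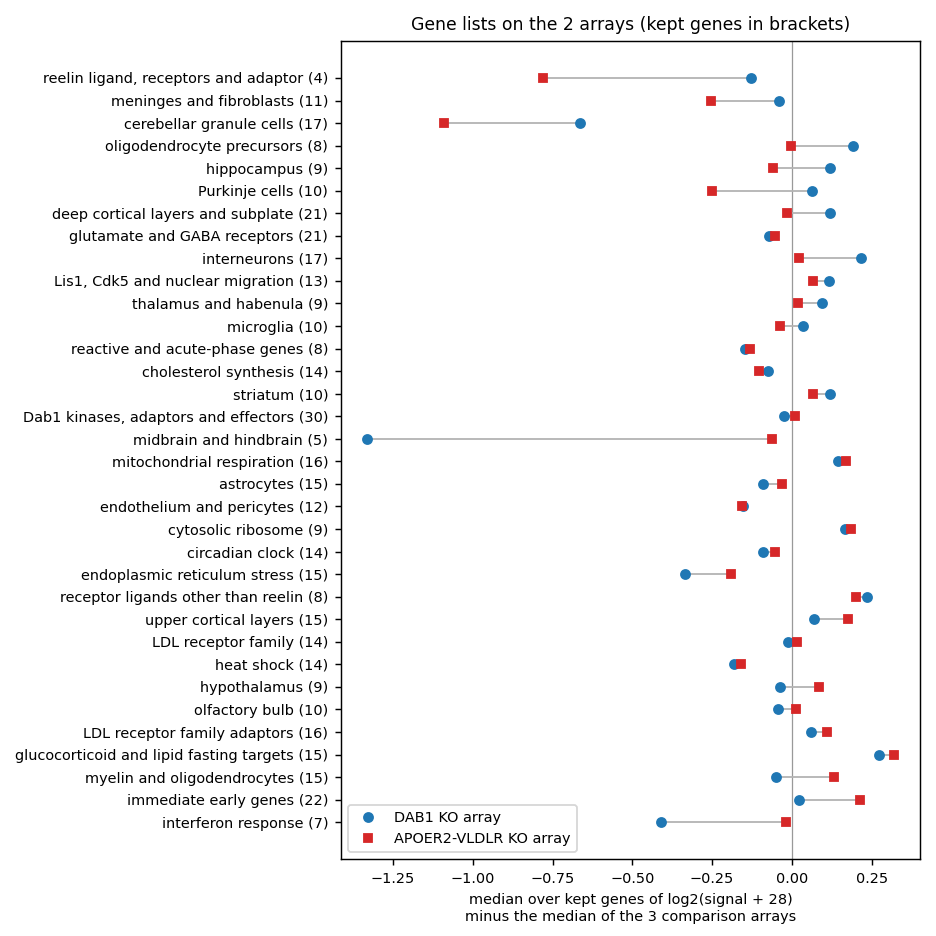
Median over the kept genes of each list of log2(signal + 28) minus the median of the Apoer2, Vldlr and wild-type arrays, for the Dab1 array (circles) and the double-receptor array (squares), ordered by the median difference between the 2 arrays. The cerebellar granule cell list is low on both arrays, at -0.66 on the Dab1 array and -1.09 on the double-receptor array. The midbrain and hindbrain list has 5 kept genes, so a single gene sets its median. Of these 5, 2 departed lower on both arrays. They are En2 (-1.68 on the Dab1 array, -2.01 on the double-receptor array) and Cnpy1 (-2.28 and -3.03).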

How the data were processed

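RNA from 1 frontal cortical lobe a mouse was labelled and hybridised to 6 one-colour 3' expression arrays, as the labels' protocols describe. The authors deposited signal intensities on a linear scale. MAS5 and Affymetrix Expression Console are the tools named, per the submitters' processing notes, without a version. With 1 array a genotype, the number of arrays limits the precision.

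Signals were taken as log2(signal + 28). The 64 control probe sets were left out. Gene names came from the platform's annotation, in which 34958 probe sets name 1 gene, 932 several and 9211 are unnamed here. A gene took its brightest probe set that names it alone (those ending in _x_at last), kept where the mean over 6 arrays was at least 89.0. RefSeq's table (GRCm38.p6) gave gene order only, for 11451 of 11497 kept genes.

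Genes were selected by rule: the targeted genes, the 10 highest and 10 lowest, the 5 farthest in each departure class and direction (3 for both and neither), and the 2 highest and lowest of each list described. Not every gene so selected is described in the text. Mroh2a, 2310002L09Rik, Ap4m1 and Rasl10a are among those left out. Genes of the 21 that departed on both arrays, those shared with a single-receptor array, and others marked in the text were named after their values were seen. The comparison, rules and lists were chosen with earlier results of these data known. Sorting into classes was tested on simulated data. The planned search of the receptor tails for the Dab1-binding letters was not run, since no protein table was used here. Python 3.11.15, numpy 2.4.6 and pandas 2.3.3 were used.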

Additional observations from a re-analysis of the deposited data

How the results depend on the processing

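Each count was recomputed with a pseudocount of 1 or of the median signal (89.4), no filter, a filter at the 75th percentile (297.5), the mean of a gene's probe sets, quantile normalization, a departure distance of 0.5, and without each comparison array. Probe sets higher on the Dab1 array numbered 3256 with a pseudocount of 1, 70 with the median and 117 with the filter on mean signal; those lower numbered 3081, 59 and 120. Genes higher numbered 19 with the median pseudocount, 161 with no filter and 7 at the 75th percentile; genes lower numbered 79 with a pseudocount of 1, 23 with the median, 181 with no filter, 18 at the 75th percentile and 25 with averaged probe sets. Genes where the Dab1 array alone departed numbered 45 (pseudocount 1), 11 (median), 86 (no filter), 8 (75th percentile) and 11 (averaged); for the double-receptor array alone they numbered 12 (median), 60 (no filter), 6 (75th percentile) and 11 (averaged). Both departed to opposite sides at 7 (distance 0.5), and to the same side at 4 (pseudocount 1), 2 (without the Vldlr array) and 3 (distance 0.5). Neither departed at 18 (median), 195 (no filter), 10 (75th percentile) and 10 (distance 0.5). A stricter filter or a larger pseudocount leaves fewer dim genes by construction. Quantile normalization moved no count by over 1.5 times. For the 40 named genes 2-fold apart, a pseudocount or a filter cannot change the sign, so those settings do not test it. The sign was kept at all 40 under quantile normalization and at all 31 measured with averaged probe sets. Several of those 31, such as Tmem87a, Pam and Alas2, have only 1 probe set. For such a gene the average is that probe set again, so averaging tests neither its sign nor its size. The difference stayed 2-fold in 32 with the median pseudocount and in 22 of 31 with averaged probe sets. Of the list medians, 183 values stayed within the spread of the comparison arrays and 18 did not, 7 of these with a change of sign: at the 75th percentile, Lis1, Cdk5 and nuclear migration (-0.03), endothelium and pericytes (0.12) and meninges and fibroblasts (-0.09, beside 0.33); with no filter, interferon response (0.00, beside -0.37); under quantile normalization, other ligands (0.04), mitochondrial respiration (0.05) and cytosolic ribosome (0.03). Of the values of named genes, 840 stayed within that spread and 91 did not. No paired analysis was possible because each genotype has 1 array. Depth is unknown for arrays; 797 of 1034 2-fold probe sets lie below the median signal.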

Other observations

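The labels call every mouse male. Xist, the RNA of the inactive X chromosome, read 3860.5 on the Dab1 array and 4006.0 on the double-receptor array, against 3367.6 on the Reln array, 124.9 on the Apoer2 array, 3820.0 on the Vldlr array and 3498.1 on the wild-type array. Eif2s3y, a Y-linked translation factor, read 0.6 on the Dab1 array and 7.7 on the double-receptor array, against 1.0 on the Reln array, 367.5 on the Apoer2 array, 0.6 on the Vldlr array and 7.1 on the wild-type array. Both compared arrays were high at Xist and low at Eif2s3y, and the Apoer2 array ran the other way. Without the Apoer2 array among the comparison arrays, the Dab1 array alone departed at 29 genes, the double-receptor array alone at 21 and neither at 32.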
